A study of Homo sapiens with 12 samples.

Results

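Glycolysis splits glucose into pyruvate in a chain of enzyme steps, and most steps can be run by several isozymes that are separate genes. In tumor cells pyruvate is often turned into lactate rather than burned in mitochondria. Hexokinase, which traps glucose in the cell, and phosphofructokinase are among the steps that control flux. Pyruvate dehydrogenase, which acts after glycolysis, admits pyruvate to mitochondria. Many of these genes are known to be induced by low oxygen through the HIF transcription factors, and a mutant YAP that escapes the Hippo pathway kinases LATS acts mainly through the TEAD transcription factors.

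The 10 genes described here are HK1, HK2, GPI, PFKP, PFKFB3, ALDOC, PGK1, ENO2, LDHA and PDK1. They cover steps between hexokinase and lactate dehydrogenase but not all, as TPI1, GAPDH, PGAM1 and PKM are read further below. A regulator of phosphofructokinase (PFKFB3) and a kinase that switches pyruvate dehydrogenase off (PDK1) are among the 10 genes. Each was read from the locus that lists its symbol, and each was listed at 1 locus among the 31585 loci of the table. Levels are in FPKM, fragments counted relative to transcript length and to the mapped fragments of the library. Loci that reached an FPKM of 1 in 3 or more libraries were tested, 15055 in all, and all 10 genes were among them.

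RNA came from A375, an established human melanoma line, stably infected with a retrovirus and selected with an antibiotic. The Control line carried the empty vector MSCV-IRES-Hygro. The other lines carried YAP-S127A, which is not held in the cytoplasm by LATS, YAP-2SA (S127A and S381A by the sample titles), which also resists degradation, or YAP-S94A,S127A, which cannot bind TEADs. A further field of the YAP-2SA records also lists S94A, and the titles were followed. Each line gave 3 RNA samples. Whether these came from separate infections or from cultures of 1 infected population is not given in the sources used here, so the p-values measure only the spread between these samples, which may be technical.

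The library labelled Control replicate 3 stood apart in YAP1. Its YAP1 level was 172 FPKM, against 34.1 and 33.0 in the other Control libraries and 130 to 187 in the mutants. Its YAP target genes did not move together, as CTGF was level, CYR61 higher and ANKRD1 lower. CTGF was at 12.7 FPKM against 12.7 and 12.2 in the other Control libraries, CYR61 at 19.7 against 15.3 and 15.6. ANKRD1 was at 0.335 FPKM in this library against 0.638 and 1.26. Results that change without it are given both ways. In YAP-2SA cells the established YAP targets CYR61, CTGF and ANKRD1 were higher than in Control by 2.57, 2.11 and 3.39 on the log2 scale. The defining melanoma marker SOX10 fell from 234 to 281 FPKM in Control to 4.53 to 7.25 in YAP-2SA cells, and the pigment genes PMEL, MLANA, TYR and DCT were at 0.58 FPKM or less in every library. Of the 4 melanocyte lineage markers that passed the filter, SOX10, S100B and S100A1 were lower and MITF higher in YAP-2SA cells. The 8 markers of that list summed to 366 to 454 FPKM in Control, 444 to 464 with YAP-S94A,S127A, 269 to 348 with YAP-S127A and 42.4 to 51.2 with YAP-2SA. Of 11 markers of other cell types, 7 stayed at 0.648 FPKM or less throughout, those of leukocytes (PTPRC, CD3E, CD14) and endothelium (PECAM1, CDH5) among them. The list's sum was 9.76 to 11.1 FPKM in Control, 10.5 to 11.3 with YAP-S94A,S127A, 18.9 to 23.4 with YAP-S127A and 42.3 to 51.1 with YAP-2SA, where COL1A1 made 27.9 to 36.3 of it. Of the 4 of these markers that passed the filter, 3 (COL1A1, PDGFRB, KRT5) were higher and 1 (KRT14) lower in YAP-2SA cells. Of all loci tested, 22.9% were higher and 19.5% lower. KRT5 passed the filter only through the YAP-2SA libraries, and COL1A1 only through those of YAP-S127A and YAP-2SA, so these calls are no support. The keratinocyte markers went opposite ways, KRT5 from 0.0282 to 1.56 and KRT14 from 6.87 to 0.434 FPKM in the means. The part of these marker changes in the glycolysis results was not tested. In bulk RNA, fewer cells expressing a gene and less RNA per cell cannot be told apart.

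The first question was which glycolysis genes differed in cells with YAP-2SA, the mutant freed of both LATS controls. In YAP-2SA cells ENO2, ALDOC, PFKP and GPI were higher than in Control, and PFKFB3 and HK1 were lower. HK2, PGK1, LDHA and PDK1 did not pass the test. A gene was called at a Benjamini-Hochberg adjusted p under 0.05 in limma, adjusted over all loci tested, and every fold change is a difference of mean log2(FPKM + 1). The share of called members was thus 4 of 10 higher, where 22.9% of all loci tested were higher, and 2 of 10 lower, where 19.5% of all loci were lower. Adding a ratio of mean FPKM over 2 left PFKFB3 and ENO2, 2 of 10 against 15.5% of all loci, a share close to the background. Without Control replicate 3, 3 members were higher and 2 lower, while calls over all loci went from 6375 to 5580. Without YAP-2SA replicate 3 the calls over all loci were 5548, so such a loss is not particular to Control replicate 3. The median log2 fold change of the members was 0.07 and that of all loci 0.01.

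**Figure D1:**
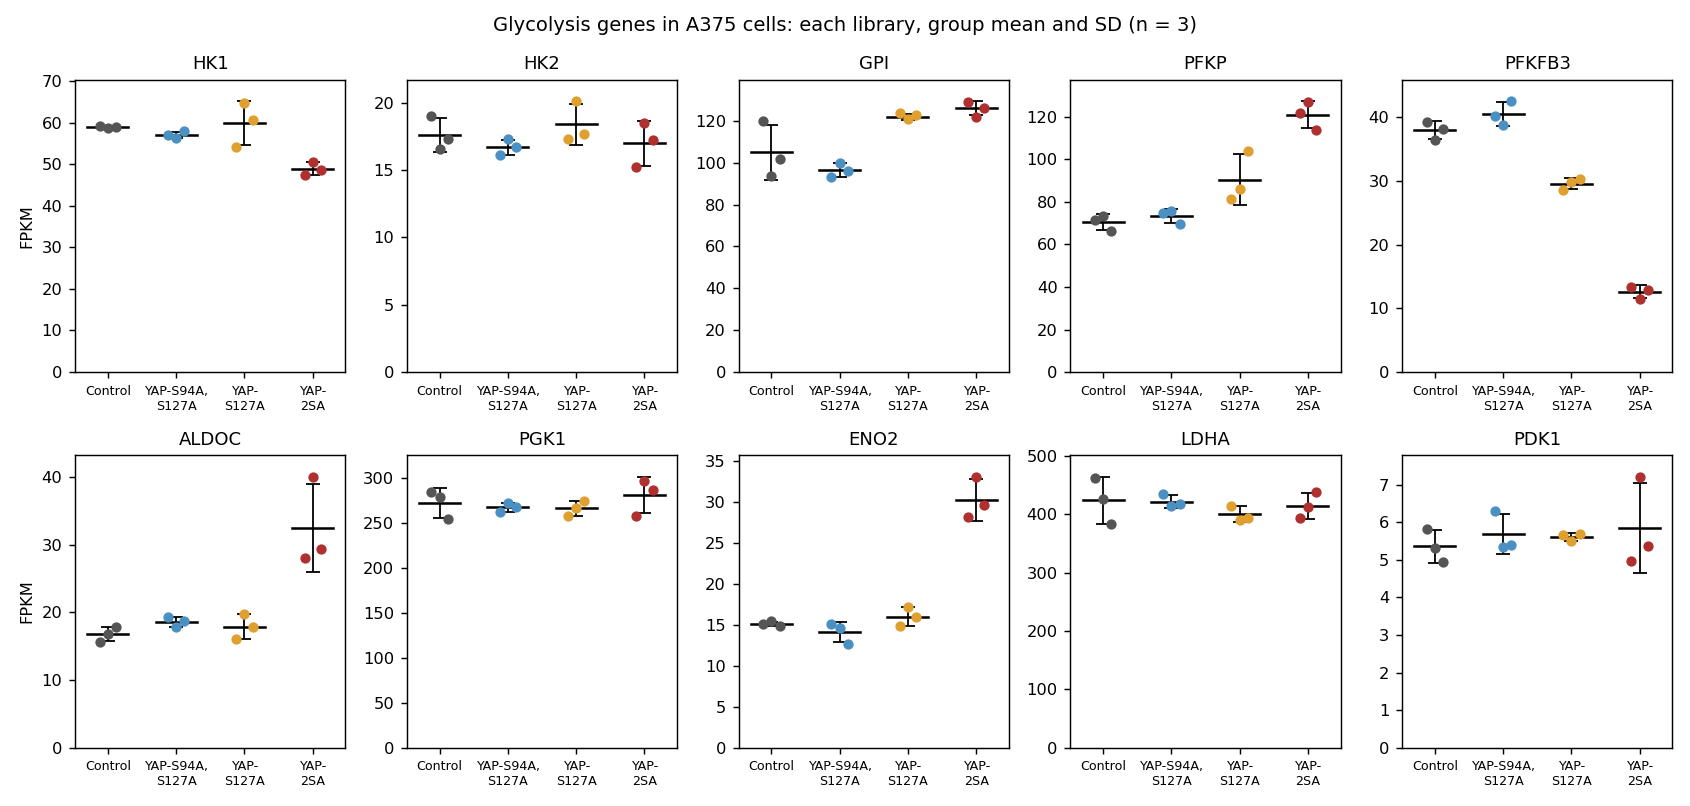
FPKM of each of the 10 genes (linear y axis from 0) in every library by group, with points for libraries, a wide bar for the group mean and whiskers for the SD (n = 3). The YAP-2SA points of PFKP, ALDOC and ENO2 lie above every other point of their panels, and those of PFKFB3 and HK1 below every other, while LDHA and PGK1 overlap across all groups.

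The promoters of the genes with the largest changes are shown to give the sequence just upstream of their starts. These are the 250 bases before each start listed by RefSeq for ALDOC and ENO2, which rose, and for PFKFB3, which fell. Positions are on GRCh38.p14. Capitals mark the letters ACGTG or GCGTG on either strand, the core of the element bound by HIF factors, and in the second PFKFB3 window also GGAATG, the core bound by TEADs.
ALDOC, chr17:28576896-28577145, minus strand: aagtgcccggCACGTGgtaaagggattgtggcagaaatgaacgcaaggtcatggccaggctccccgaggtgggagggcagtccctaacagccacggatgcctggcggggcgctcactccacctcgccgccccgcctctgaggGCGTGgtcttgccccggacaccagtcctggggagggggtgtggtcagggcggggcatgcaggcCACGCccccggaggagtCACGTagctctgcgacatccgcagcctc
ENO2, chr12:6914330-6914579, plus strand: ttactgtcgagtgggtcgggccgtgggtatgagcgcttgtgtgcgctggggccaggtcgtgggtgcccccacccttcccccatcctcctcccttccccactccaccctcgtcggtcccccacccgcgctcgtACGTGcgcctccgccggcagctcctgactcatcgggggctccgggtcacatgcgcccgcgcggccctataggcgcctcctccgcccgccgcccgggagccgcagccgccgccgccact
PFKFB3 upstream start, chr10:6144671-6144920, plus strand: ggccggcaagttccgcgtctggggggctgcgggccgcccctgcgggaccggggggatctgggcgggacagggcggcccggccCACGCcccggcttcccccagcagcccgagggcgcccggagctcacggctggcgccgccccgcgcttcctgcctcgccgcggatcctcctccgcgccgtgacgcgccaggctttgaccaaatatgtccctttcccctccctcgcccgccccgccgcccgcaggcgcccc
PFKFB3 downstream start, chr10:6202682-6202931, plus strand: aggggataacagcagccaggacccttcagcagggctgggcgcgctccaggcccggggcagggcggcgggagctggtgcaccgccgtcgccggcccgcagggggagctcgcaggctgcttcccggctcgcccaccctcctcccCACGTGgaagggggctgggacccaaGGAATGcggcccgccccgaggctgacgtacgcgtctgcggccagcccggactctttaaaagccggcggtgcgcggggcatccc
The ALDOC window held 5 matches to the hypoxia core and the ENO2 window 1. PFKFB3 held 1 in its upstream window and 2 in its downstream window. In the ALDOC and the downstream PFKFB3 windows, 2 of these matches overlap in the palindrome CACGTG. Across all 23 windows of the 10 genes, 14 (60.9%) held the hypoxia core, and each gene had it in at least 1 window. The core was in 43.2% of all 35116 RefSeq windows of the same length. The genes differ in their number of windows and some windows overlap, so the count per gene has no background here. The TEAD core was in 2 of the 23 windows, the downstream PFKFB3 window and 1 of PFKP, and in 11.9% of all windows. A match says only that the letters are there, and the table does not tell which start was used.

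Hexokinase phosphorylates glucose, and HK1 is the isoform most tissues express. HK1 (chromosome 10, 71029740 to 71161640 on GRCh37) measured 59.1, 58.8 and 59.0 FPKM in Control, 57.0, 56.2 and 57.9 with YAP-S94A,S127A, 54.1, 64.6 and 60.6 with YAP-S127A, and 47.5, 50.5 and 48.6 with YAP-2SA. The YAP-2SA libraries lay below all others, although the distance was small. The log2 fold change against Control was -0.27 (SE 0.06, adjusted p = 0.00438), and against YAP-S127A it was -0.28 (SE 0.06, adjusted p = 0.00441). HK2, the isoform typical of tumor and muscle cells, measured 19.0, 16.6 and 17.3 FPKM in Control and 15.2, 18.5 and 17.2 with YAP-2SA, with 16.1 to 17.3 with YAP-S94A,S127A and 17.3 to 20.1 with YAP-S127A, and every group overlapped Control. Its log2 difference was -0.06 with a 95% interval of -0.24 to 0.13 (adjusted p = 0.63). Of the summed hexokinase FPKM, HK1 made up 75.2% ± 1.05 (SD, n = 3) in Control and 70.1% ± 1.01 in YAP-2SA cells. The share of HK2 was 22.5% and 24.3%, and that of the minor hexokinase HKDC1 2.36% and 5.67%. The mean of the sum itself was 78.4 FPKM in Control and 69.8 in YAP-2SA cells.

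GPI converts glucose phosphate to fructose phosphate, the substrate of phosphofructokinase. GPI (chromosome 19, 34850385 to 34893318) measured 119.9, 93.9 and 102.4 FPKM in Control, 93.1, 99.8 and 96.3 with YAP-S94A,S127A, 124, 121 and 123 with YAP-S127A, and 129, 122 and 126 with YAP-2SA. Both TEAD-binding mutants lay above the other groups, narrowly so above Control replicate 1. The YAP-2SA difference from Control was 0.26 (SE 0.08, adjusted p = 0.0189). It lost its call in 6 of 21 alternatives, among them leaving out Control replicate 3 (0.24, adjusted p = 0.0579), Control replicate 2 (0.18, adjusted p = 0.0637), YAP-2SA replicate 1 (0.24, adjusted p = 0.0587) or YAP-2SA replicate 3 (0.25, adjusted p = 0.0518). Against YAP-S94A,S127A the difference was 0.38 (SE 0.08, adjusted p = 0.00215), called in all 21 alternatives.

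Phosphofructokinase makes the committed step of glycolysis, and PFKP is its platelet-type isozyme. PFKP (chromosome 10, 3108525 to 3179910) measured 71.4, 73.6 and 66.3 FPKM in Control and 74.7, 75.6 and 69.6 with YAP-S94A,S127A. It measured 81.2, 86.1 and 104 FPKM with YAP-S127A and 122.5, 126.7 and 114.3 with YAP-2SA. The groups formed a series, with no overlap between Control, YAP-S127A and YAP-2SA. PFKP was higher in YAP-2SA cells by 0.77 against Control (SE 0.09, adjusted p = 3.8e-05) and by 0.42 against YAP-S127A (SE 0.09, adjusted p = 0.00372). Its share of the phosphofructokinase FPKM was 50.9% to 56.0% in the Control libraries and 66.6% to 67.9% in the YAP-2SA libraries, a description with no test. The liver isozyme PFKL differed by 0.18 (adjusted p = 0.0881), and the muscle isozyme PFKM was lower, with a fold change of -0.27 (SE 0.08, adjusted p = 0.0151), a call lost without Control replicate 3 (-0.23, adjusted p = 0.0569).

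PFKFB3 makes the bisphosphate that activates phosphofructokinase, and it had the largest fold change of the 10 genes in YAP-2SA against Control. PFKFB3 (chromosome 10, 6186897 to 6296607) measured 39.3, 36.4 and 38.2 FPKM in Control and 40.2, 38.8 and 42.5 with YAP-S94A,S127A. It measured 28.6, 29.8 and 30.3 FPKM with YAP-S127A and 13.4, 11.4 and 12.9 with YAP-2SA. Every YAP-S127A library lay below every Control library, and every YAP-2SA library far below both. The YAP-2SA mean was 0.331 of the Control mean, with a log2 fold change of -1.52 (SE 0.06, adjusted p = 1.8e-08), and -1.17 against YAP-S127A (SE 0.06, adjusted p = 2.8e-07). PFKFB3 thus fell in the libraries in which the phosphofructokinase isozyme PFKP rose. Over the 21 alternatives the fold change against Control ranged from -1.59 to -1.09, and all 21 called it.

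The paralog PFKFB4, at a locus that also lists UCN2, fell further. It measured 27.0, 48.8 and 46.6 FPKM in Control, 30.7, 45.8 and 46.1 with YAP-S94A,S127A, 18.2, 32.3 and 25.4 with YAP-S127A, and 5.36, 6.86 and 6.77 with YAP-2SA. The fold change against Control was -2.47 (SE 0.26, adjusted p = 2.2e-05). In each group replicate 1 was the lowest library. PFKFB2 was at 2.78 to 3.21 FPKM in Control and 2.88 to 3.62 in YAP-2SA cells (0.12, adjusted p = 0.272), and PFKFB1 was at 0.218 FPKM or less in Control. The 4 PFKFB genes together summed to 81.8 ± 10.5 FPKM (SD, n = 3) in Control, 84.2 ± 9.31 with YAP-S94A,S127A, 57.9 ± 7.75 with YAP-S127A and 22.2 ± 0.718 with YAP-2SA, and these sums were not tested. PFKFB3 made up 47.1% ± 8.18 of the sum in Control and 56.6% ± 4.91 in YAP-2SA cells, with overlapping libraries.

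Aldolase splits the sugar bisphosphate, and ALDOC is the isozyme best known from brain. ALDOC (chromosome 17, 26900133 to 26903966, minus strand) measured 15.7, 16.8 and 17.8 FPKM in Control, 19.3, 17.9 and 18.7 with YAP-S94A,S127A, 16.0, 19.7 and 17.9 with YAP-S127A, and 28.1, 40.0 and 29.4 with YAP-2SA. The YAP-2SA libraries stood above all others, replicate 2 the highest, and the YAP-S94A,S127A libraries lay just above those of Control. The difference was 0.90 against Control (SE 0.12, adjusted p = 1.5e-04) and 0.82 against YAP-S127A (SE 0.12, adjusted p = 4.8e-04). The YAP-S127A value did not pass against Control (0.09, 95% interval -0.19 to 0.36, adjusted p = 0.774). ALDOC stayed a minor isozyme, 2.16% ± 0.324 of the aldolase FPKM in Control and 3.45% ± 0.656 in YAP-2SA cells (SD, n = 3), beside ALDOA at 705 to 844 and 905 to 912 FPKM.

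Enolase makes phosphoenolpyruvate, and ENO2 is the neuronal isozyme, used in pathology as neuron-specific enolase. ENO2 (chromosome 12, 7022909 to 7032861) measured 15.1, 15.4 and 14.8 FPKM in Control, 15.1, 14.6 and 12.7 with YAP-S94A,S127A, 14.9, 17.1 and 15.9 with YAP-S127A, and 28.1, 33.0 and 29.6 with YAP-2SA. The YAP-2SA libraries stood apart, and the other groups overlapped. The mean ratio was 2.0 and the fold change 0.95 (SE 0.08, adjusted p = 3.7e-06), with 0.88 against YAP-S127A (SE 0.08, adjusted p = 1.2e-05). ENO2 too remained minor, 0.862% of the enolase FPKM in Control and 1.80% in YAP-2SA cells. The main isozyme ENO1 differed by -0.08 (SE 0.07, adjusted p = 0.43).

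The abundant members at the end of the pathway did not pass the test in any comparison. PGK1, which yields the first ATP of the pathway, measured 284, 279 and 254 FPKM in Control and 258, 296 and 287 with YAP-2SA, a difference of 0.04 with a 95% interval of -0.10 to 0.18 (adjusted p = 0.62). LDHA, which turns pyruvate into lactate, measured 462, 426 and 383 FPKM in Control and 393, 413 and 438 with YAP-2SA, with an interval of -0.19 to 0.13 (adjusted p = 0.781). With YAP-S94A,S127A and YAP-S127A, PGK1 was at 262 to 272 and 258 to 274 FPKM and LDHA at 415 to 435 and 391 to 415. All groups overlapped for both genes. LDHA made up 34.8% ± 1.57 of the lactate dehydrogenase FPKM in Control and 33.4% ± 0.968 in YAP-2SA cells. For PDK1, at 5.83, 5.31 and 4.95 FPKM in Control and 4.96, 7.20 and 5.36 with YAP-2SA, the interval ran from -0.16 to 0.35 (adjusted p = 0.557), and the other mutants lay between 5.34 and 6.30. GENCODE names 6 pseudogenes of LDHA, 2 of PGK1 and 1 each of HK2 and PDK1, so reads may be shared and their levels are less certain. How strand was used in counting is not given in the sources used here, and exons of ALDOC, HK1 and PDK1 overlap a gene on the opposite strand. Exons of PGK1 overlap ATP7A on the same strand, and those of GPI and PFKP overlap unnamed genes.

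**Figure D2:**
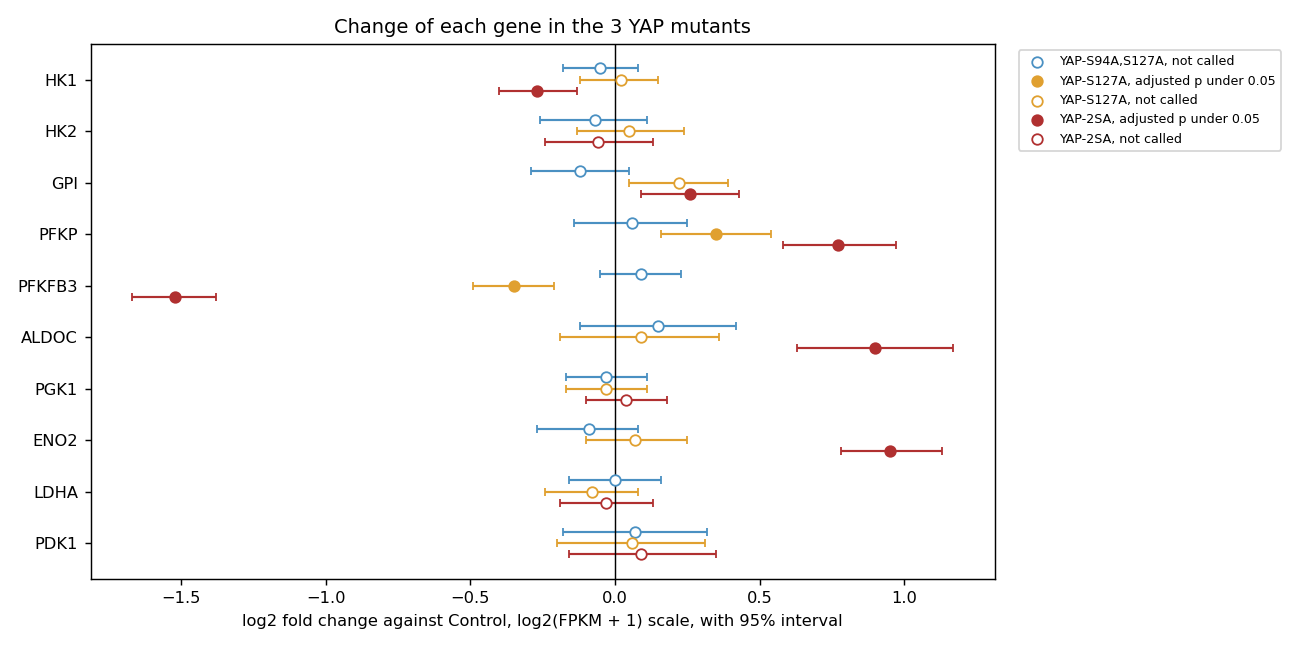
Log2 fold change (x axis, log2(FPKM + 1) scale) of each gene in each mutant against Control, with whiskers for the 95% interval from limma, filled points for calls and open points for the rest. The largest departures are PFKFB3 at -1.52 and ENO2 at 0.95 in YAP-2SA cells, while every YAP-S94A,S127A interval spans 0.

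The next comparison asked which of these enzymes differed with YAP-S127A, and it uses the same Control libraries as the one before. In YAP-S127A cells PFKP was 0.35 higher than in Control (SE 0.09, adjusted p = 0.0409), and PFKFB3 fell by 0.35 (-0.35, SE 0.06, adjusted p = 0.00838). These were 1 member of 10 higher and 1 lower, beside 4.56% and 1.75% of all loci. The PFKFB3 call held in all 21 alternatives. The PFKP call held in 6 of 21 and was lost without any 1 library except YAP-S127A replicate 1, the adjusted p without Control replicate 3 being 0.131 with a fold change of 0.31. GPI differed by 0.22 (adjusted p = 0.129), called in 1 of 21 alternatives, without Control replicate 1 (0.32, adjusted p = 0.00958). The step from YAP-S127A to YAP-2SA was itself called for PFKP, ALDOC and ENO2, which were higher, and for PFKFB3 and HK1, which were lower, against 18.3% and 14.5% of all loci. PFKFB3 alone exceeded a ratio of 2 in that comparison, where 11.1% of all loci did.

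YAP-S94A,S127A was compared with Control, again the same libraries, and with YAP-S127A to ask what differed where YAP cannot bind TEADs. No member was called in YAP-S94A,S127A cells against Control by limma. None had an unadjusted p under 0.05 in limma, a count that was not set against all loci. The background of calls was also low, 0.0864% of all loci higher and 0.093% lower, and a count of 0 of 10 called is near it. The point estimates ran from -0.12 for GPI to 0.15 for ALDOC, and for PFKFB3 the 95% interval was -0.05 to 0.23. The direct comparison of YAP-S127A with YAP-S94A,S127A gave a PFKFB3 fold change of -0.44 (SE 0.06, adjusted p = 0.00155) and a GPI fold change of 0.34 (SE 0.08, adjusted p = 0.0167), and 6.36% of all loci were higher and 4.31% lower. The GPI call was lost without YAP-S127A replicate 1 (adjusted p = 0.0527) and without YAP-S94A,S127A replicate 1 (0.0662) or 3 (0.0583). PFKP missed the threshold there (0.29, adjusted p = 0.0597).

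YAP-2SA against YAP-S94A,S127A called GPI, PFKP, ALDOC and ENO2 higher and PFKFB3 and HK1 lower, 4 and 2 of 10 beside 23.2% and 20.3% of all loci. PFKFB3 at -1.61 and ENO2 at 1.04 exceeded a ratio of 2, as did 15.9% of all loci. No Control mean enters this comparison, but the Control libraries add to the estimate of spread, and the YAP-2SA libraries are those of the comparison against Control.

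Glucose can enter through SLC2A1 and lactate can leave through SLC16A3, and the genes of these 2 transporters were higher in YAP-2SA cells. Of 6 transport genes tested, 3 were higher in YAP-2SA cells and 3 did not pass, where 22.9% of all loci were higher. The count was 2 of 6 without Control replicate 3, where calls over all loci were 5580 instead of 6375. SLC2A1, the main glucose transporter of tumor cells, measured 58.4, 48.7 and 46.5 FPKM in Control, 47.1, 48.4 and 46.7 with YAP-S94A,S127A, 72.8, 61.2 and 82.7 with YAP-S127A, and 98.6, 88.6 and 94.9 with YAP-2SA. The rise was 0.87 with YAP-2SA (SE 0.11, adjusted p = 8.3e-05) and 0.48 with YAP-S127A (SE 0.11, adjusted p = 0.0247), the latter lost without Control replicate 3 (0.42, adjusted p = 0.0904). SLC16A3, the lactate exporter MCT4, measured 5.70, 9.18 and 7.85 FPKM in Control and 22.6, 25.0 and 26.3 with YAP-2SA, a rise of 1.60 (SE 0.20, adjusted p = 1.0e-04). SLC16A1, a lactate transporter of the same list, was more abundant and was not called. Its means were 47.8 FPKM in Control and 53.5 with YAP-2SA, beside 7.58 and 24.6 for SLC16A3. BSG, the chaperone of lactate transporters, rose by 0.23 (adjusted p = 0.029), called in 15 of 21 alternatives and not without Control replicate 3 (adjusted p = 0.0532).

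The other glycolysis enzymes were tested to see whether the rest of the chain followed. Of 14 tested, 5 were higher, 3 were lower and 6 did not pass in YAP-2SA cells, beside 22.9% and 19.5% of all loci, so the count of lower genes was near the background. The highest were HKDC1 (0.80), the mutase PGAM1 (0.44, 307 to 417 FPKM in the means) and pyruvate kinase PKM (0.41, 1120 to 1480 FPKM). The lowest were the muscle isozymes PGAM2 (-1.19), ENO3 (-0.62) and PFKM (-0.27), all at lower levels than the main isozymes of their steps. GAPDH differed by 0.08 (adjusted p = 0.499). Without Control replicate 3 the counts were 3 higher and 2 lower, as ALDOA (adjusted p = 0.131), TPI1 (adjusted p = 0.0641) and PFKM were lost. Calls over all loci were then 5580 instead of 6375. The median fold change of the list was 0.07, as for the 10 genes.

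Where pyruvate goes depends on pyruvate dehydrogenase, which PDK kinases switch off and PDP phosphatases switch on. Of 15 tested PFKFB, PDK and pyruvate dehydrogenase genes, 2 were higher and 3 lower in YAP-2SA cells, where 22.9% and 19.5% of all loci were, so the lower count was at the background and the higher count below it. PDK4, unlike PDK1, fell from 5.85, 7.36 and 7.43 FPKM in Control to 1.23, 1.50 and 1.39 in YAP-2SA cells, a fold change of -1.73 (SE 0.13, adjusted p = 1.6e-06). With YAP-S127A it measured 3.79, 5.40 and 4.03 FPKM, a fold change of -0.55 (SE 0.13, adjusted p = 0.0315) that was not called without Control replicate 3 (-0.50, adjusted p = 0.107). The phosphatase PDP1 was 0.68 higher (SE 0.11, adjusted p = 6.2e-04) and the subunit PDHA1 0.35 higher (adjusted p = 0.0199), while the subunit PDHX was lower with -0.22 (adjusted p = 0.00714). The 4 PDK genes together summed to 26.6 ± 1.80 FPKM in Control and 21.1 ± 2.03 in YAP-2SA cells (SD, n = 3), with PDK1 at 20.3% ± 2.93 and 27.5% ± 3.01 of it. Without Control replicate 3, 1 gene of this list was higher and 3 lower, as PDHA1 was lost (adjusted p = 0.0769). Over all loci the calls were then 5580 instead of 6375.

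**Figure D3:**
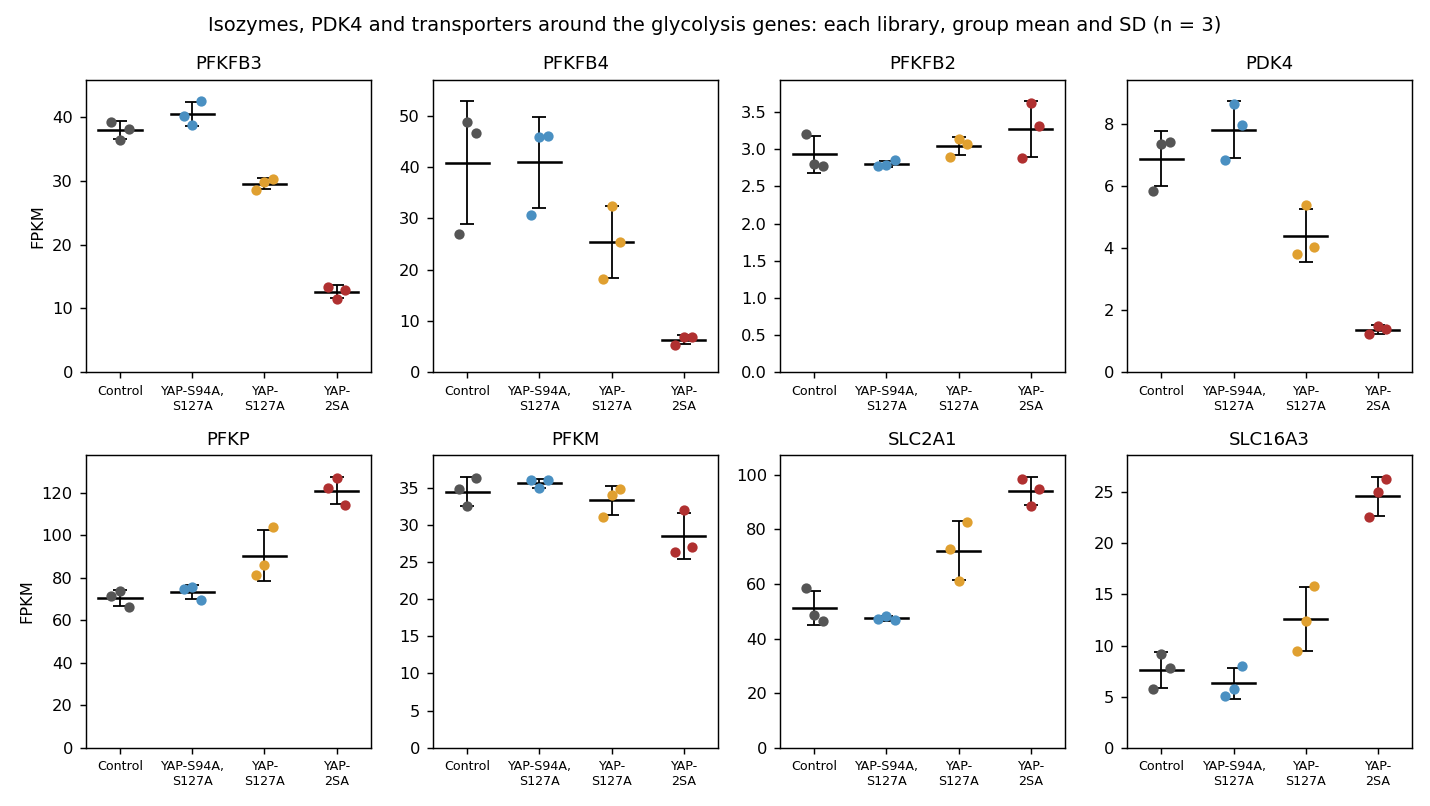
FPKM (linear y axis from 0) of the PFKFB genes, PDK4, the phosphofructokinases PFKP and PFKM, and the transporters SLC2A1 and SLC16A3 in every library, with the group mean and SD (n = 3). In YAP-2SA cells the points of PFKFB3, PFKFB4 and PDK4 lie below and those of PFKP, SLC2A1 and SLC16A3 above all Control points, while those of PFKFB2 overlap.

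Several of the 10 genes are textbook hypoxia targets, so hypoxia-inducible genes outside glycolysis and known regulators were read in the same libraries. Of 14 tested, 4 were higher, 3 lower and 7 not called in YAP-2SA cells, shares near the 22.9% and 19.5% of all loci. ADM, a vasodilator peptide, rose from 8.35, 9.59 and 6.08 FPKM to 55.6, 58.4 and 43.0 (2.57, SE 0.17, adjusted p = 5.7e-07). With YAP-S127A the rise was 0.81 (adjusted p = 0.0177), not called without Control replicate 3 (0.65, adjusted p = 0.0559). NDRG1 (1.24) and the mitophagy receptor BNIP3L (0.74) were also higher. DDIT4 (-1.24), the demethylase KDM3A (-0.58) and MXI1 (-0.56) were lower. Among 8 regulators tested, 2 were higher and 1 lower, also near those shares. EPAS1, which encodes HIF2 alpha, is 1 of these 2 and differed by 0.97 (0.309 to 1.57 FPKM in the means). Its level was 0.778 FPKM or less in every library outside YAP-2SA. It thus passed the filter only through the YAP-2SA libraries, and its call is no support. HIF1A was higher by 0.74 (SE 0.22, adjusted p = 0.0215). The locus of ESRRA, which also lists PRDX5, was lower with -0.32 (adjusted p = 0.0113). MYC, a known activator of glycolysis genes, differed by -0.17 (adjusted p = 0.385). The HIF1A call held in 17 of 21 alternatives and was lost without Control replicate 2 (adjusted p = 0.0687), and 1 YAP-S94A,S127A library reached 112 FPKM where the YAP-2SA libraries were at 113, 122 and 120. HIF activity is set largely through protein stability, which these data do not measure.

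The same lists were read in YAP-S127A cells against Control, where 4.56% of all loci were higher and 1.75% lower. None of the 14 other glycolysis enzymes or 8 regulators was called by limma, and a count of 0 is near those shares. Of them, 3 and 2 had an unadjusted p under 0.05 in limma, counts that were not set against all loci. PDK4 was the 1 call of its list, SLC2A1 that of transport and ADM that of the hypoxia list. Without Control replicate 3 none of these 3 passed, while calls over all loci in this comparison went from 950 to 677. With YAP-S94A,S127A no gene of any of these lists was called by limma against Control, where 0.0864% of all loci were higher and 0.093% lower. There 2 genes, both of the PFKFB and PDK list, had an unadjusted p under 0.05, again not set against all loci. In YAP-S127A against YAP-S94A,S127A, ADM (0.98), SLC16A3 (0.88), SLC2A1 (0.59) and PDP1 (0.57) were higher and PDK4 was lower (-0.71). Of all loci, 6.36% were higher and 4.31% lower there.

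**Figure D4:**
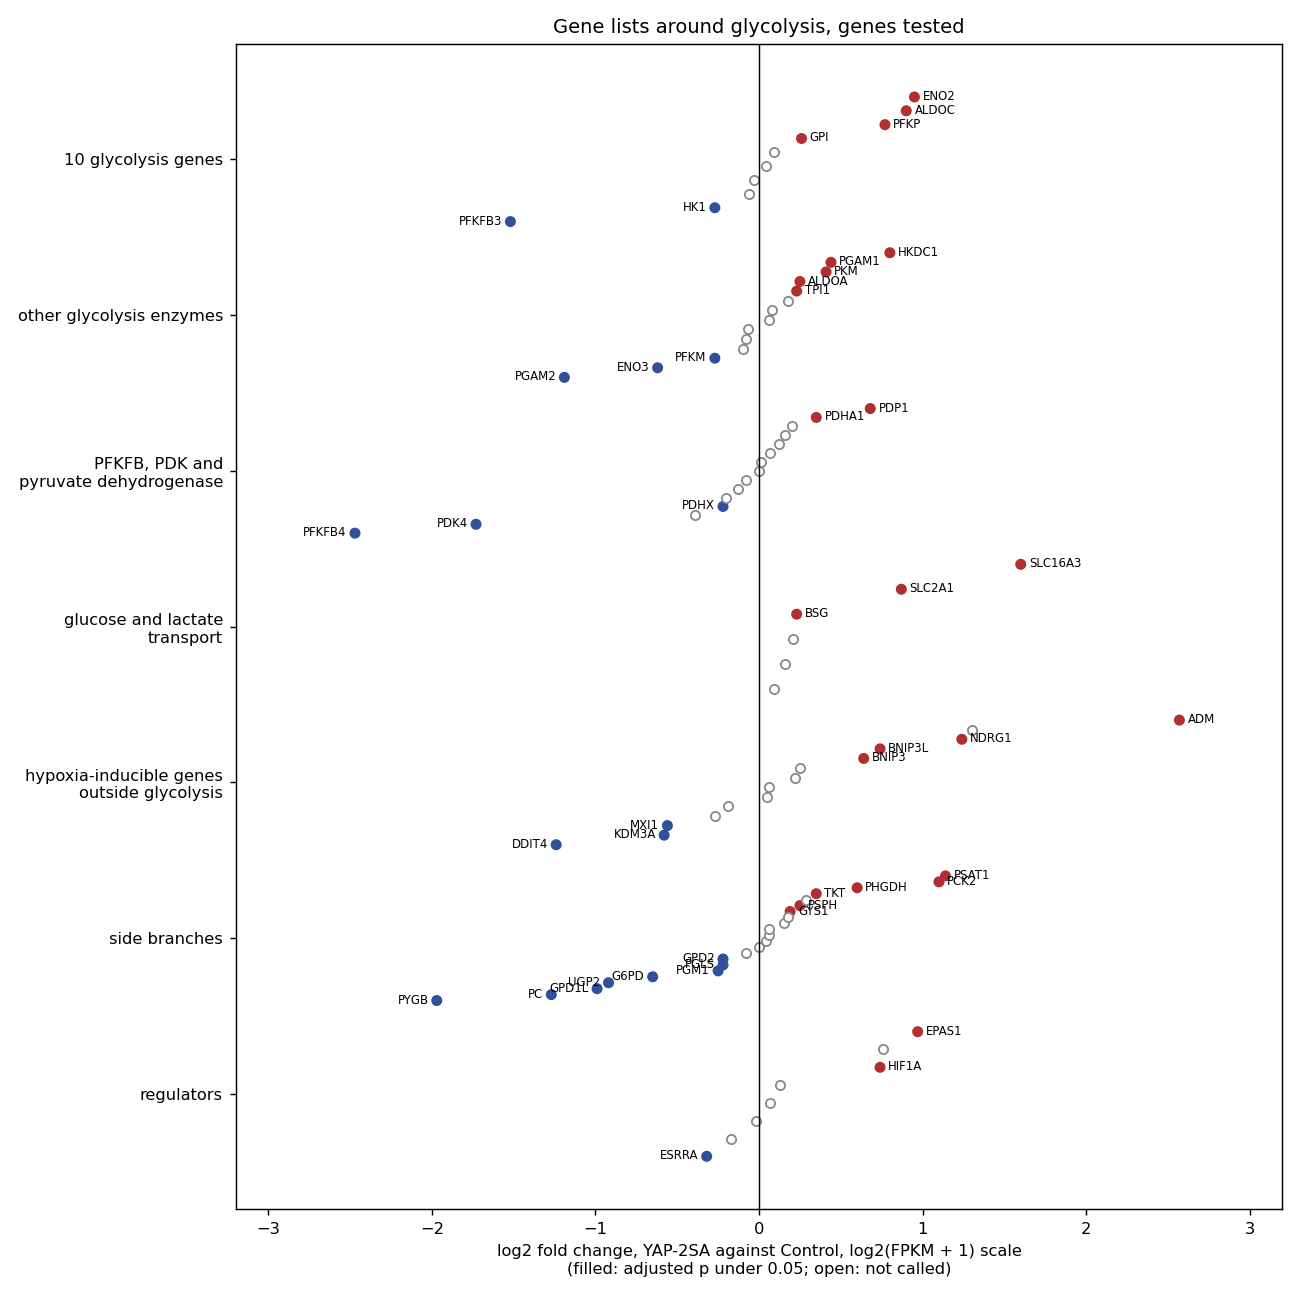
Log2 fold change in YAP-2SA cells against Control (x axis, log2(FPKM + 1) scale) of every tested gene of 7 lists, 1 point per gene, filled and named where called, red for higher and blue for lower. The called transport genes all lie to the right, while every other list holds called genes on both sides.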

How the data were processed

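The table gave 1 value per locus for 12 libraries. Per the labels and the study's methods, the authors aligned reads to hg19 (TopHat2 2.0.4, bowtie2 2.0.0) and assembled transcripts with cufflinks 2.0.2, as the submitters' processing notes list them, and deposited log2(FPKM + 1). Of 31588 rows, 3 identical ones were removed. Whole reads could not be recovered (at most 6.21% of low loci shared a step ratio), so depth is unknown. FPKM summed to 790865 to 901558 per library and 20161 to 20656 loci were above 0.

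For 6 comparisons, group means over the 12 libraries were compared in limma 3.58.1 (R 4.3.3, intensity trend), with Benjamini-Hochberg adjustment over 15055 loci, and the procedure was tested on simulated data. With 3 libraries a group, exact permutation reaches no p under 0.1, so none is reported. The 21 alternatives per result are in the closing section. Isozyme shares used FPKM. Members and gene lists were chosen with earlier results of these data known. Named genes were the members, the label checks, up to 3 highest and 3 lowest called genes of each list, and the 2 loci nearest to each of 3 members. Others (the cell type markers, PFKL, PFKFB1, PFKFB2, ALDOA, TPI1, ENO1, GAPDH, SLC16A1, MYC, VEGFA) were named after their values were seen. Gene coordinates are from GENCODE on GRCh37 and promoters from RefSeq on GRCh38.p14, with all 10 members matched. Figures used matplotlib 3.10.9.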

Additional observations from a re-analysis of the deposited data

How the results depend on the processing

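The count of members called in YAP-2SA cells was 5 to 6 of 10 against Control, 5 against YAP-S127A and 5 to 6 against YAP-S94A,S127A under every alternative, and stayed 0 for YAP-S94A,S127A against Control. For YAP-S127A against Control it was 1 instead of 2 with no filter, with only the libraries compared, with no intensity trend and at an adjusted p under 0.01, as PFKP was lost, and leaving out single libraries gave 1 to 2. Using the replicate number as a block also gave 1, and changed no other count by over 1.5 times. Over all tested loci, same-numbered libraries did not deviate together (r from -0.149 to 0.163, median 0.012, and 5 of 12 libraries were closest to their own number). A deviation shared by few genes would not show in this correlation, and PFKFB4 was lowest in replicate 1 of every group. Whether the numbers pair the libraries for such genes is thus not settled. For YAP-S127A against YAP-S94A,S127A the count was 1 at an adjusted p under 0.01, 1 to 2 without single libraries and up to 3 under other settings. Over all loci, the calls of YAP-S127A against Control went from 950 to 447 with only the libraries compared and 621 without Control replicate 2, and those of YAP-S127A against YAP-S94A,S127A from 1607 to 961 without YAP-S94A,S127A replicate 3 and to 1066 with only the libraries compared. YAP-S94A,S127A against Control went from 27 to 18 with a pseudocount of 0.1. For YAP-2SA the lowest count over all loci came with an FPKM of at least 5, the highest with no filter. The calls ran from 4629 to 7268 against Control, 3599 to 5462 against YAP-S127A and 4733 to 7472 against YAP-S94A,S127A. Both settings change which loci are tested.

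Signs turned only for values that were not called. Quantile normalization gave PGK1 -0.05 in YAP-2SA against Control, HK1 -0.01 and PGK1 0.01 in YAP-S127A against Control, GPI -0.04, PGK1 -0.06 and LDHA -0.07 in YAP-2SA against YAP-S127A, PGK1 0.05 in YAP-S127A against YAP-S94A,S127A, and HK2 0.00 and PGK1 -0.01 in YAP-2SA against YAP-S94A,S127A. Median-ratio scaling gave HK1 0.00 in YAP-S127A against Control. Without single libraries, values not called ran across 0 as follows. In YAP-2SA against Control HK2 ran from -0.12 to 0.02, PGK1 from -0.01 to 0.10, LDHA from -0.10 to 0.04 and PDK1 from -0.05 to 0.18. In YAP-S127A against Control HK1 ran from -0.04 to 0.08 and HK2 from -0.01 to 0.11. In YAP-S94A,S127A against Control PGK1 ran from -0.08 to 0.01 and LDHA from -0.07 to 0.06. In YAP-2SA against YAP-S127A PDK1 ran from -0.10 to 0.13. In YAP-S127A against YAP-S94A,S127A ALDOC ran from -0.13 to 0.01, PGK1 from -0.03 to 0.01 and PDK1 from -0.05 to 0.05. In YAP-2SA against YAP-S94A,S127A HK2 ran from -0.04 to 0.09, LDHA from -0.07 to 0.01 and PDK1 from -0.12 to 0.11. Summing rows of a symbol changed nothing, as each member has 1 row. Depth is unknown, so it gives no limit here.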

Other observations

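Of 22 tested genes of the side branches that leave glycolysis, 6 were higher and 8 lower in YAP-2SA cells against Control, where 22.9% of all loci were higher and 19.5% lower. The serine pathway genes PSAT1 (1.14, adjusted p = 5.1e-06) and PHGDH (0.60, adjusted p = 6.5e-05) were higher, as was the mitochondrial PCK2 (1.10, adjusted p = 4.5e-07). Glycogen phosphorylase PYGB fell from 253, 243 and 267 FPKM in Control to 64.1, 65.3 and 62.3, a fold change of -1.97 (adjusted p = 2.7e-09). Pyruvate carboxylase PC (-1.27, adjusted p = 1.6e-05) and GPD1L (-0.99, adjusted p = 1.1e-06) were also lower. Without Control replicate 3 the counts were 4 higher and 5 lower of 22, while calls over all loci went from 6375 to 5580. With YAP-S127A, PSAT1 (0.44), PHGDH (0.34) and PCK2 (0.38) were higher and GPD1L was lower with -0.31. Without Control replicate 3, PCK2 alone of these passed (0.36, adjusted p = 0.036).

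VEGFA, a hypoxia-inducible gene, was at 324 FPKM in YAP-2SA replicate 1 and at 9.09 and 10.2 in the other YAP-2SA libraries, against 10.2 to 14.6 in Control.

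By root mean square difference of log2(FPKM + 1) over 12 libraries, after subtracting each gene's Control mean, the loci nearest to PFKFB3 were CD109 (0.0807) and GZMB (0.0945). Those nearest to ENO2 were RTN4RL1 (0.0746) and MYL12A (0.0973), and those nearest to PFKP were AKR1B1 (0.067) and DVL1 (0.0734). RTN4RL1 and GZMB are low, at group means of 1.23 and 2.16 FPKM or less. From Control to YAP-2SA, GZMB went from 1.88 to 0.0168 FPKM and RTN4RL1 from 0.201 to 1.23 in the means. These relative changes are larger than those of PFKFB3 and ENO2, as log2(FPKM + 1) shrinks changes at low levels.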
